A study of Homo sapiens with 12 samples.

Results

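The genes described here are 36 genes of autophagy and of ER-phagy, its branch that degrades the endoplasmic reticulum (ER). They were listed by name for their known role, and all 36 were found among the 20015 genes of the deposited count table. Transcript levels came from bulk RNA sequencing of HT29, an established human cell line derived from a colorectal adenocarcinoma, engineered to express Cas9. The 12 libraries form 4 groups of 3. QRICH1 KO cells carry a lentiviral guide RNA against QRICH1 and were given tunicamycin (QRICH1 KO Tm, 0.3 µg/ml for 14 h) or the solvent DMSO (QRICH1 KO DMSO). WT cells carry a non-targeting guide, so they too express Cas9 and were transduced, and were given the same dose of tunicamycin (WT Tm) or DMSO (WT DMSO). Tunicamycin blocks N-linked glycosylation, so that misfolded proteins build up in the ER. The series asks how QRICH1, a regulator of transcription, shapes the response to this stress. Libraries within a group are described as biological replicates in the design text, and whether the KO cells are 1 clone or a mixed pool is not given in the sources used here.

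In autophagy a double membrane closes around a piece of the cell and then fuses with a lysosome, where the contents are degraded. A kinase complex starts the process, a lipid kinase and membrane proteins on the ER build the first membrane, and ubiquitin-like proteins of the ATG8 family are joined to lipids of that membrane. Receptors tie cargo to ATG8 proteins, and those that sit in the ER membrane direct parts of the ER itself into autophagosomes. Autophagy removes excess ER during ER stress, and several of its genes are known targets of the stress transcription factors ATF4 and CHOP.

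Total counts were 6856736 to 17861844 per library, and the upper limit implied by a count of 0 (3 counts) was 0.168 to 0.438 CPM, the unit of counts scaled to a fixed library total. These limits and all counting intervals cover counting error only, since PCR copies were not marked. Counts were found for 13124 to 14094 genes in 10 libraries, but for 14813 in QRICH1 KO Tm library 3 and for 15340 in QRICH1 KO DMSO library 3. QRICH1 itself stood at 26.8, 22.4 and 19.2 CPM in QRICH1 KO Tm, 23.3, 24.1 and 24.8 CPM in QRICH1 KO DMSO, 30.8, 31.0 and 25.7 CPM in WT Tm and 22.7, 31.1 and 35.0 CPM in WT DMSO libraries. It was not called between genotypes (KO over WT log2 -0.36, adjusted p = 0.352 under Tm, and -0.31, adjusted p = 0.577 under DMSO, edgeR). Since a frameshift can leave transcript levels as they are, this checks the labels only weakly. Of 10 markers of colon epithelium 8 averaged at least 1 CPM, whereas CDX2 lay below 1 CPM and CDX1 had 1 count in all. None of 10 markers of immune, stromal and endothelial cells averaged 1 CPM, and their summed level was 0.793 to 4.22 CPM in QRICH1 KO Tm, 0.848 to 2.50 in QRICH1 KO DMSO, 0.990 to 2.43 in WT Tm and 0.609 to 1.23 in WT DMSO.

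Tunicamycin changed a subset of the autophagy genes. By point estimate, WIPI1, MAP1LC3B and CCPG1 rose more than 4-fold in QRICH1 KO and in WT cells, and TFEB was the gene that fell in both. MAP1LC3B and CCPG1 lay close to that mark in QRICH1 KO, with log2 fold changes of 2.02 and 2.09. Leaving out 1 library took these as low as 1.96 and 1.89, under 4-fold. Of the 34 genes that passed the filter on low counts, 9 rose, 1 fell and 24 were not called with Tm in QRICH1 KO cells, where 15.6% of all 11323 genes tested were called (9.09% higher and 6.53% lower). In WT cells 12 rose, 2 fell and 20 were not called, where 23.8% of all genes were called (12.6% higher and 11.1% lower). The called share of the 34 genes was thus 29.4% in QRICH1 KO and 41.2% in WT. The median log2 fold change of the 34 was 0.16 in QRICH1 KO and 0.28 in WT, against -0.0039 and -0.0239 over all genes. All 10 genes called in QRICH1 KO were among the 14 called in WT, in the same direction. A call is an adjusted p under 0.05 by edgeR's quasi-likelihood test adjusted by Benjamini-Hochberg over the whole set tested, two-sided, and levels are TMM-scaled CPM. Without QRICH1 KO Tm library 2 the number of listed genes called in QRICH1 KO was 6, and without QRICH1 KO DMSO library 2 the 1768 calls over all genes became 1109. Irrespective of calls, all Tm libraries lay above all DMSO libraries for 12 and below them for 4 of the 34 genes in QRICH1 KO (16.9% and 15.5% of all genes), and for 15 and 4 in WT (19% and 18.5% of all genes). GABARAP and RETREG1 did not pass the filter, with 30 and 39 counts over all 12 libraries.

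**Figure D1:**
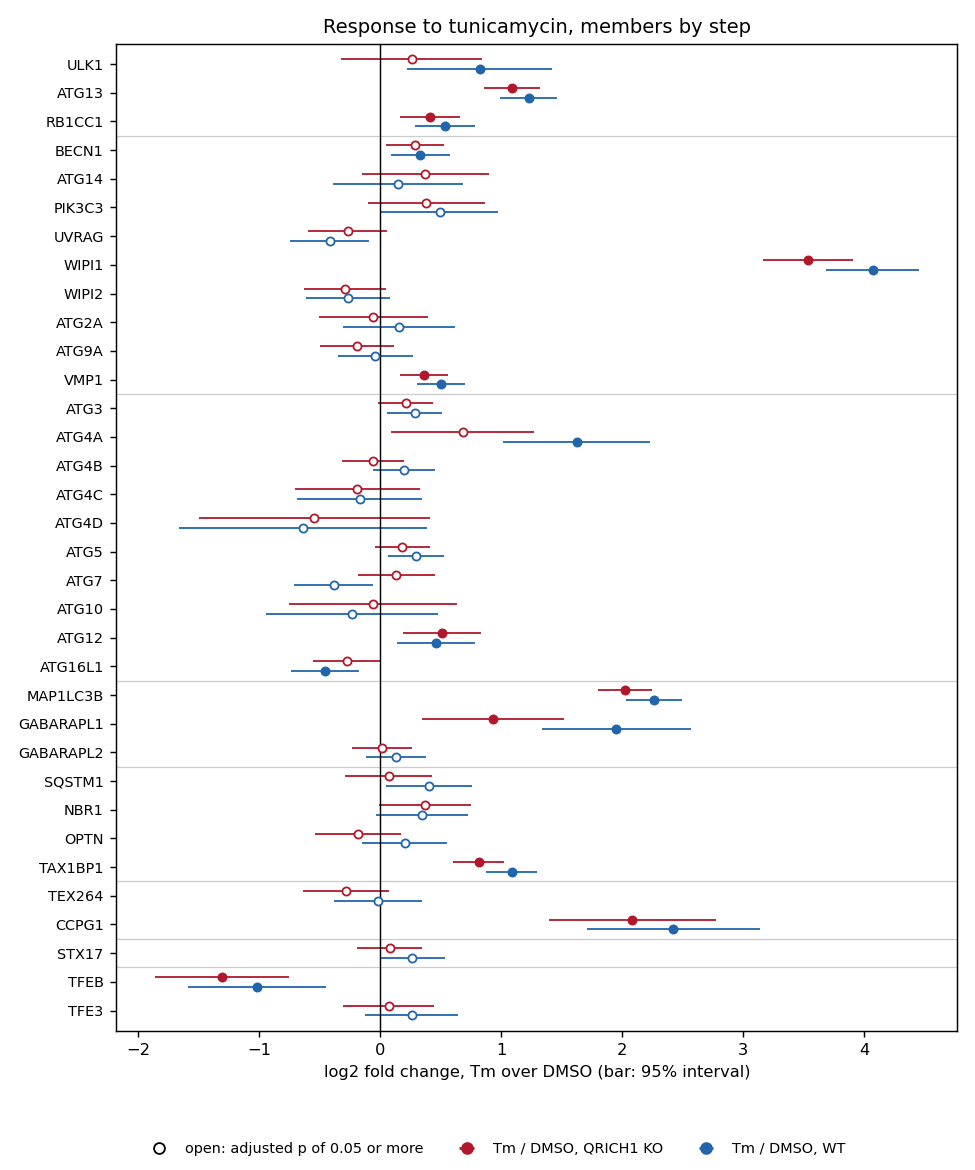
Log2 fold change of Tm over DMSO in QRICH1 KO (red, upper) and WT cells (blue, lower) for the 34 tested genes, grouped by step, with 95% intervals; filled points have an adjusted p under 0.05. WIPI1 lies farthest to the right, at 3.54 in QRICH1 KO and 4.07 in WT, and TFEB farthest to the left, at -1.31 and -1.01.

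The promoters of the 3 genes that rose more than 4-fold in both genotypes are shown with those of ATG3 and ATG14, the only ones with a match to CACGTG, the core of sites that TFEB and TFE3 bind. Each line holds 250 bases before and 50 after the transcription start, 5′ to 3′ on the gene's strand, from RefSeq (GRCh38.p14). The windows are chr17:68457447-68457746 (minus strand) for WIPI1, chr16:87392086-87392385 (plus strand) for MAP1LC3B, chr15:55408310-55408609 (minus strand) for CCPG1, chr3:112561913-112562212 (minus strand) for ATG3 and chr14:55411781-55412080 (minus strand) for ATG14. The MAP1LC3B window lies inside the GENCODE interval of that gene, downstream of its annotated start. Capitals mark matches on either strand to CACGTG and to the motifs CCAAT and TGACG.
WIPI1: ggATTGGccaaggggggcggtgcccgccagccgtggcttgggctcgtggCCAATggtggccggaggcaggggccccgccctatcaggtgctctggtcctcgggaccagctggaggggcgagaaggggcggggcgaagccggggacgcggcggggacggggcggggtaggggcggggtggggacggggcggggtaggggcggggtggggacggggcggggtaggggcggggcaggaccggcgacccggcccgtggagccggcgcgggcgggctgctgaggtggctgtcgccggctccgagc
MAP1LC3B: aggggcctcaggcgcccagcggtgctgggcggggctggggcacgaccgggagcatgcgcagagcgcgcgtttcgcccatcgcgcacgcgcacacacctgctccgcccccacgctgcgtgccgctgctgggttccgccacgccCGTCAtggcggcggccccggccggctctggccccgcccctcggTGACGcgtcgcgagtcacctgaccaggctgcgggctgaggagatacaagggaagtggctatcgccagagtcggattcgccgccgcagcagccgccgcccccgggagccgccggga
CCPG1: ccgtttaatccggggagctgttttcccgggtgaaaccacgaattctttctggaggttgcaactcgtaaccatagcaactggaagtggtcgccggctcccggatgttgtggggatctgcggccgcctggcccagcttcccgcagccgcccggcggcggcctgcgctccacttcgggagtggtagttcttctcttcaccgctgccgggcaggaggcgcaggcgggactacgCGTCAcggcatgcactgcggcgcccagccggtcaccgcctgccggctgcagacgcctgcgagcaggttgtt
ATG3: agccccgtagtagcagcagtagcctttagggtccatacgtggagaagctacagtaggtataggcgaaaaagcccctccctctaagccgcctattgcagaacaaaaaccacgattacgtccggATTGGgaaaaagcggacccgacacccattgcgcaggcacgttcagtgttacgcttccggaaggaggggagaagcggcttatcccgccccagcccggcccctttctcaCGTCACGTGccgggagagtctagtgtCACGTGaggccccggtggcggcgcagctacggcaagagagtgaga
ATG14: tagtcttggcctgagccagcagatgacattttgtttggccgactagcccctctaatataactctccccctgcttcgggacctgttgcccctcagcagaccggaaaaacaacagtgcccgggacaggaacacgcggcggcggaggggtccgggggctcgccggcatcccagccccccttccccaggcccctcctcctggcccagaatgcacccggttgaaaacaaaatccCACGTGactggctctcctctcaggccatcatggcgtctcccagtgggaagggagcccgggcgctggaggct

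A window was found for 32 of the 36 genes and 13 of the 14 that were called, and both strands were searched. TGATGNAA, the composite site of ATF4 and C/EBP factors, was in none of the 32, against 4.46% of 27305 genes with a window. The ER stress response element ERSE, which is CCAAT and CCACG with 9 bases between them, was in none either, against 0.0916% of genes. CACGTG was found in 2 of the 32 and in none of the 13 called ones, against 8.77% of genes. It lay 21 bases upstream of the start in ATG14, and 18 bases upstream and again 6 bases into the transcript in ATG3, where the upstream match shares bases with a TGACG match. CCAAT, which NF-Y binds, and TGACG, the core of cyclic AMP response elements, were added after the values were seen. CCAAT was in 14 of the 32 and 4 of the 13 called ones, against 39.7% of genes, and TGACG in 15 of the 32 and 8 of the 13, against 28.4% of genes. The 27305 genes were all those with a window and were not limited to the 20015 of the count table or the 11323 tested. They are therefore not a matched background, and no test was run. These are matches of letters within 300 bases, and they do not show binding.

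At initiation, 2 of the 3 listed genes of the ULK1 kinase complex rose with Tm in QRICH1 KO, where 9.09% of all genes rose. In WT 3 of 3 rose, where 12.6% of all genes did. ATG13 (ENSG00000175224.16, chr11:46617527-46674818, plus strand; hg38 positions, GENCODE 29), the regulatory subunit, had 173, 177 and 157 CPM in QRICH1 KO Tm libraries, against 80.4, 87.9 and 69.8 CPM in QRICH1 KO DMSO libraries, and 158, 174 and 170.43 CPM in WT Tm libraries, against 76.7, 66.3 and 72.0 CPM in WT DMSO libraries. The Tm libraries lay far above the DMSO libraries in both genotypes, with a 2.13-fold increase in QRICH1 KO (log2 fold change 1.09, SE 0.111, adjusted p = 1.01e-06) and 2.34-fold in WT (log2 fold change 1.23, SE 0.112, adjusted p = 1.48e-07). RB1CC1 (ENSG00000023287.13), the scaffold also called FIP200, had 82.0, 103 and 94.0 CPM in QRICH1 KO Tm libraries, against 68.4, 75.7 and 65.6 CPM in QRICH1 KO DMSO libraries, and 116, 111 and 102 CPM in WT Tm libraries, against 83.4, 75.5 and 69.0 CPM in WT DMSO libraries. Its Tm and DMSO libraries did not overlap in either genotype, and it rose 1.33-fold in QRICH1 KO (log2 fold change 0.41, SE 0.116, adjusted p = 0.0214) and 1.45-fold in WT (log2 fold change 0.54, SE 0.117, adjusted p = 0.00232). The kinase gene ULK1 (ENSG00000177169.10, chr12:131894651-131923167, plus strand) was scarce, with 4.13, 7.02 and 4.22 CPM in QRICH1 KO Tm libraries, against 5.09, 3.88 and 3.63 CPM in QRICH1 KO DMSO libraries, and 5.61, 5.85 and 8.06 CPM in WT Tm libraries, against 4.63, 2.92 and 3.57 CPM in WT DMSO libraries. Its groups overlapped in QRICH1 KO, where 1 Tm library stood above the others (log2 fold change 0.26, SE 0.277, adjusted p = 0.587), and not in WT, where it rose 1.77-fold (log2 fold change 0.82, SE 0.286, adjusted p = 0.0439). The ULK1 call in WT was lost without any 1 of 6 libraries (WT Tm 1, 2 or 3, WT DMSO 2 or 3, or QRICH1 KO DMSO 2), with adjusted p = 0.0505 to 0.176. That of RB1CC1 in QRICH1 KO was lost without QRICH1 KO Tm 2 or 3 or QRICH1 KO DMSO 1 or 3 (adjusted p = 0.058 to 0.113).

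Of the 9 genes of nucleation and early membrane growth, WIPI1 stood apart. WIPI1 (ENSG00000070540.13, chr17:68420948-68457513, minus strand) encodes a propeller-shaped protein that binds the phosphoinositide made by the lipid kinase PIK3C3. Its level was 39.7, 41.0 and 39.3 CPM in QRICH1 KO Tm libraries, against 3.67, 3.67 and 2.94 CPM in QRICH1 KO DMSO libraries, and 58.6, 66.5 and 56.7 CPM in WT Tm libraries, against 2.45, 4.63 and 3.27 CPM in WT DMSO libraries. It was scarce in every DMSO library and far above that range in every Tm library, an increase of 11.6-fold in QRICH1 KO (log2 fold change 3.54, SE 0.177, adjusted p = 8.58e-11) and 16.8-fold in WT (log2 fold change 4.07, SE 0.182, adjusted p = 1e-11). The exons of ARSG, on the opposite strand, cover 24.3% of the exon length of WIPI1, and the library chemistry does not mark strand. ARSG stood at 4.21 to 7.001 CPM in QRICH1 KO Tm, 4.88 to 5.48 in QRICH1 KO DMSO, 5.20 to 6.84 in WT Tm and 1.94 to 5.05 in WT DMSO libraries, and the part of these reads in the WIPI1 result was not tested. VMP1 (ENSG00000062716.13, chr17:59707192-59842255, plus strand), which encodes a lipid scramblase of the ER, had 335, 339 and 318 CPM in QRICH1 KO Tm libraries, against 271, 250.01 and 248 CPM in QRICH1 KO DMSO libraries, and 370.11, 348 and 391 CPM in WT Tm libraries, against 263, 264 and 256 CPM in WT DMSO libraries. It rose 1.29-fold in QRICH1 KO (log2 fold change 0.37, SE 0.0941, adjusted p = 0.0124) and 1.42-fold in WT (log2 fold change 0.50, SE 0.0944, adjusted p = 0.00066), with no overlap of libraries. Its call in QRICH1 KO was lost without QRICH1 KO Tm 2 (adjusted p = 0.0521) or QRICH1 KO DMSO 2 (adjusted p = 0.0647).

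BECN1 (ENSG00000126581.13, chr17:42810134-42833350, minus strand), a subunit of the PIK3C3 complex, had 58.5, 53.4 and 53.2 CPM in QRICH1 KO Tm libraries, against 49.0, 42.9 and 43.4 CPM in QRICH1 KO DMSO libraries, and 53.3, 57.7 and 47.9 CPM in WT Tm libraries, against 43.4, 44.9 and 38.2 CPM in WT DMSO libraries. Its libraries did not overlap in either genotype, but it was not called in QRICH1 KO (log2 fold change 0.29, SE 0.115, adjusted p = 0.102), and it rose only 1.26-fold in WT (log2 fold change 0.33, SE 0.116, adjusted p = 0.0452). In WT the call was lost without any 1 of 9 libraries (all but QRICH1 KO DMSO 1 and 3 and WT Tm 3), with adjusted p = 0.0505 to 0.171. The lipid kinase gene PIK3C3 and its partner genes ATG14 and UVRAG were not called, with log2 fold changes in WT of 0.49, 0.15 and -0.42. UVRAG had all Tm libraries below all DMSO libraries in both genotypes, at 9.48 to 10.7 CPM against 11.6 to 13.2 CPM in QRICH1 KO and at 10.3 to 12.7 CPM against 14.6 to 16.5 CPM in WT (adjusted p = 0.0622 in WT). PIK3C3 passed the threshold without WT DMSO library 3 (log2 0.80, adjusted p = 0.0208). WIPI2, the paralog of WIPI1, the lipid transfer gene ATG2A and the scramblase gene ATG9A were not called in either genotype, with log2 fold changes between -0.29 and 0.15. A gene of the same strand, AC068946.2, covers 38.8% of the exon length of ATG9A and had 9 counts in all libraries. How reads shared by these genes were counted is not given in the sources used here, so the level of ATG9A is uncertain.

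Among the propeller genes the make-up shifted with Tm. Per exon length (CPM per kb), WIPI1 made up 19.7 ± 1.36% of the summed level of WIPI1, WIPI2, WDR45 and WDR45B in QRICH1 KO Tm, against 2.31 ± 0.22% in QRICH1 KO DMSO. In WT Tm it made up 24.1 ± 0.83%, against 2.29 ± 0.73% in WT DMSO (SD, n = 3 each). WDR45B was the most abundant of the 4 throughout.

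Of the 10 genes of the conjugation machinery, 1 rose with Tm in QRICH1 KO (10%, against 15.6% of all genes called), and 2 rose and 1 fell in WT (30%, against 23.8% of all genes). This machinery holds the E1-like enzyme ATG7, the E2-like ATG3 and ATG10, the ATG12, ATG5 and ATG16L1 subunits of the ligase and the ATG4 proteases, which trim ATG8 proteins and release them from lipid. ATG4A (ENSG00000101844.18, chrX:108091668-108154671, plus strand) had 9.20, 8.90 and 7.80 CPM in QRICH1 KO Tm libraries, against 4.86, 6.72 and 4.57 CPM in QRICH1 KO DMSO libraries, and 16.2, 11.7 and 12.5 CPM in WT Tm libraries, against 1.77, 4.87 and 5.88 CPM in WT DMSO libraries. It rose 3.09-fold in WT (log2 fold change 1.63, SE 0.288, adjusted p = 0.000393) and was not called in QRICH1 KO (log2 fold change 0.68, SE 0.282, adjusted p = 0.114), though the libraries did not overlap there either. In QRICH1 KO it passed the threshold without WT DMSO library 1 (log2 0.69, adjusted p = 0.035). The other proteases ATG4B, ATG4C and ATG4D were not called, with log2 fold changes of -0.06, -0.19 and -0.54 in QRICH1 KO and 0.20, -0.17 and -0.64 in WT. Per exon length ATG4A made up 15.8 ± 1.20% of the 4 ATG4 genes in QRICH1 KO Tm, against 9.85 ± 1.59% in QRICH1 KO DMSO, and 22.2 ± 3.30% in WT Tm, against 8.78 ± 4.56% in WT DMSO (SD, n = 3 each).

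ATG12 (ENSG00000145782.13, chr5:115828200-115841858, minus strand), a ubiquitin-like protein that is joined to ATG5, had 33.0, 38.8 and 34.2 CPM in QRICH1 KO Tm libraries, against 24.3, 22.4 and 27.5 CPM in QRICH1 KO DMSO libraries, and 41.3, 32.3 and 42.9 CPM in WT Tm libraries, against 22.2, 29.1 and 32.4 CPM in WT DMSO libraries. It rose 1.42-fold in QRICH1 KO (log2 fold change 0.51, SE 0.153, adjusted p = 0.0294) and 1.38-fold in WT (log2 fold change 0.46, SE 0.154, adjusted p = 0.0357), where 1 Tm library lay just below the highest DMSO library. Exons of AP3S1 on the opposite strand cover 4.25% of its exon length, and AP3S1 stood at 68.7 to 74.6 CPM in QRICH1 KO Tm, 53.2 to 57.3 in QRICH1 KO DMSO, 73.7 to 88.0 in WT Tm and 54.0 to 57.2 in WT DMSO libraries. The part of these reads in the ATG12 result was not tested. Other listed genes share exon bases with opposite-strand genes too, and this was not tested either. Among them are SQSTM1 (MRNIP, 20.7% of its exon length), ATG7 (VGLL4, 18.1%) and ATG4D (KRI1, 15.0%). ATG10 (RPS23, 6.86%) and BECN1 (PSME3, 4.68%) are others. The ATG12 call was lost in QRICH1 KO without QRICH1 KO Tm 2 or 3 or QRICH1 KO DMSO 1 or 2 (adjusted p = 0.0581 to 0.129). In WT the ATG12 call was lost without WT Tm 1 or 3 or WT DMSO 1 or 2 (adjusted p = 0.0725 to 0.144).

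ATG16L1 (ENSG00000085978.22, chr2:233210051-233295674, plus strand), which places the ligase on the membrane, had 45.9, 45.9 and 42.6 CPM in QRICH1 KO Tm libraries, against 50.5, 50.8 and 61.4 CPM in QRICH1 KO DMSO libraries, and 34.7, 47.0 and 44.5 CPM in WT Tm libraries, against 64.8, 55.4 and 53.4 CPM in WT DMSO libraries. The Tm libraries lay below the DMSO libraries in both genotypes. It fell 1.37-fold in WT (log2 fold change -0.46, SE 0.133, adjusted p = 0.0173) and was not called in QRICH1 KO (log2 fold change -0.27, SE 0.131, adjusted p = 0.176). The WT call was lost without WT Tm 1 (adjusted p = 0.128) or WT DMSO 1 (adjusted p = 0.0759). ATG3, ATG5, ATG7 and ATG10 were not called in either genotype. In WT all Tm libraries of ATG3 and ATG5 lay above, and those of ATG7 below, all DMSO libraries, with log2 fold changes of 0.29, 0.30 and -0.38 (adjusted p = 0.0623, 0.0581 and 0.0819). ATG3 passed the threshold without WT DMSO library 3 (adjusted p = 0.0429). DESeq2 called ATG3 (adjusted p = 0.0312) and ATG5 (adjusted p = 0.0349) in WT.

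Of the ATG8 genes, whose products coat the growing membrane and hold cargo receptors, MAP1LC3B changed most. MAP1LC3B (ENSG00000140941.13, chr16:87383995-87404779, plus strand) encodes LC3B, the usual marker of autophagosomes. It had 184, 219.52 and 198 CPM in QRICH1 KO Tm libraries, against 50.5, 49.1 and 48.4 CPM in QRICH1 KO DMSO libraries, and 233, 234 and 224 CPM in WT Tm libraries, against 42.6, 49.1 and 51.7 CPM in WT DMSO libraries. The increase was 4.07-fold in QRICH1 KO (log2 fold change 2.02, SE 0.108, adjusted p = 1.98e-10) and 4.81-fold in WT (log2 fold change 2.27, SE 0.11, adjusted p = 2.45e-11), far beyond the spread within any group. Reads may be split with its near-identical copy MAP1LC3B2, which had 5.63, 8.55 and 6.13 CPM in QRICH1 KO Tm, 1.13, 1.04 and 1.75 in QRICH1 KO DMSO, 6.02, 7.48 and 6.69 in WT Tm and 0.816, 1.64 and 1.26 in WT DMSO libraries. That copy had similar log2 fold changes of 2.35 (adjusted p = 2.33e-05) in QRICH1 KO and 2.36 (adjusted p = 2.12e-05) in WT, and its level is uncertain for this reason.

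GABARAPL1 (ENSG00000139112.11, chr12:10212458-10223130, plus strand) had 4.92, 10.5 and 8.67 CPM in QRICH1 KO Tm libraries, against 4.75, 3.81 and 3.94 CPM in QRICH1 KO DMSO libraries, and 13.4, 13.2 and 7.91 CPM in WT Tm libraries, against 3.81, 2.86 and 2.53 CPM in WT DMSO libraries. Every Tm library lay above every DMSO library of its genotype, by a narrow margin in QRICH1 KO. It rose 1.91-fold in QRICH1 KO (log2 fold change 0.93, SE 0.279, adjusted p = 0.0302) and 3.87-fold in WT (log2 fold change 1.95, SE 0.294, adjusted p = 7.3e-05). The QRICH1 KO call was lost without QRICH1 KO Tm 2 or 3 or QRICH1 KO DMSO 2 or 3 (adjusted p = 0.0673 to 0.157). GABARAPL2 was not called, with log2 fold changes of 0.02 in QRICH1 KO and 0.13 in WT, at 59.6 to 71.5 CPM in QRICH1 KO and 61.9 to 80.4 CPM in WT libraries. GABARAP had 0 to 11 counts in a library (0 to 0.894 CPM) and was not tested. A gene of the same strand, AC120057.2, covers 30.5% of its exon length and was listed at 0 counts in all libraries. AC120057.3, on the opposite strand, covers 25.2%. How reads shared by these genes were counted is not given in the sources used here, so the level of GABARAP is uncertain.

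Among the 4 listed ATG8 genes, the most abundant transcript per length as counted differed between treatments. Per exon length MAP1LC3B made up 61.7 ± 1.97% of the 4 ATG8 genes in QRICH1 KO Tm, against 29.5 ± 1.61% in QRICH1 KO DMSO, and 61.9 ± 2.01% in WT Tm, against 28.7 ± 2.06% in WT DMSO. GABARAPL2 made up 35.0 ± 3.05% in QRICH1 KO Tm, against 67.0 ± 1.43% in QRICH1 KO DMSO, and 33.8 ± 3.16% in WT Tm, against 68.8 ± 1.64% in WT DMSO (SD, n = 3 each). The ranges of Tm and DMSO libraries did not meet for either gene. These are shares of mRNA per length and not of protein. They take GABARAP at its low and uncertain level. They leave out MAP1LC3A (group means of 0.881 to 1.12 CPM per kb) and MAP1LC3B2 (0.703 to 3.83).

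**Figure D2:**
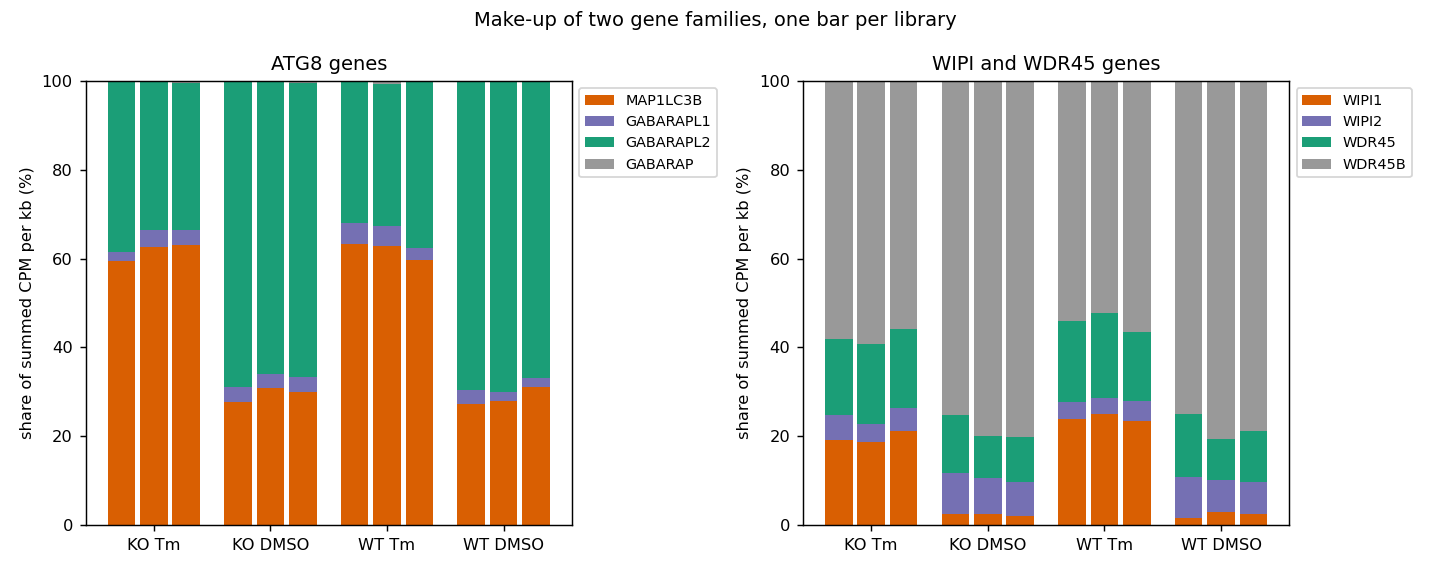
Share of the summed level per exon length (CPM per kb, in percent) held by each of 4 ATG8 genes (left) and 4 WIPI and WDR45 genes (right), 1 bar per library. MAP1LC3B holds 59.4% to 63.4% in the 6 Tm libraries and 27.3% to 31.1% in the 6 DMSO libraries, and WIPI1 holds 18.6% to 25.0% in the Tm and 1.5% to 2.94% in the DMSO libraries.

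Cargo receptors bind ubiquitin-tagged cargo and ATG8 proteins. With Tm 1 of 4 listed receptor genes was called in each genotype (25%, against 15.6% of all genes in QRICH1 KO and 23.8% in WT). TAX1BP1 (ENSG00000106052.13, chr7:27739331-27844564, plus strand) was the 1 of the 4 listed receptor genes that rose, with 165, 156 and 179.57 CPM in QRICH1 KO Tm libraries, against 92.1, 93.9 and 98.5 CPM in QRICH1 KO DMSO libraries, and 212, 208 and 202 CPM in WT Tm libraries, against 90.6, 97.7 and 104 CPM in WT DMSO libraries. No Tm library came near a DMSO library, and the increase was 1.76-fold in QRICH1 KO (log2 fold change 0.82, SE 0.0992, adjusted p = 1.1e-05) and 2.12-fold in WT (log2 fold change 1.09, SE 0.1, adjusted p = 1.71e-07). SQSTM1, which encodes p62, was the most abundant of the 36 genes per length in each group, at 64.4 CPM per kb in QRICH1 KO Tm, 61.3 in QRICH1 KO DMSO, 77.7 in WT Tm and 58.8 in WT DMSO. It was not called (log2 0.07 in QRICH1 KO, and 0.40 with adjusted p = 0.0967 in WT), and its 3 WT DMSO libraries spread from 337 to 594 CPM. Without the highest of these, WT DMSO library 1, it passed the threshold (log2 0.65, adjusted p = 0.00553). NBR1 and OPTN were not called in either genotype, with log2 fold changes of 0.37 and -0.18 in QRICH1 KO and 0.35 and 0.20 in WT. NBR1 in QRICH1 KO passed the threshold without QRICH1 KO Tm library 1 (log2 0.58, adjusted p = 0.0196).

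Among the ER-phagy receptors, CCPG1 rose and TEX264 was not called. CCPG1 (ENSG00000260916.7, chr15:55340032-55408510, minus strand) encodes an ER membrane protein that binds ATG8 proteins and RB1CC1. It was scarce, with 724 counts in all libraries and 7.54, 9.48 and 7.08 CPM in QRICH1 KO Tm libraries, against 1.36, 1.52 and 2.75 CPM in QRICH1 KO DMSO libraries, and 12.5, 6.18 and 10.8 CPM in WT Tm libraries, against 1.09, 2.25 and 1.86 CPM in WT DMSO libraries. The groups did not overlap in either genotype, and the increase was 4.24-fold in QRICH1 KO (log2 fold change 2.09, SE 0.329, adjusted p = 0.00021) and 5.36-fold in WT (log2 fold change 2.42, SE 0.34, adjusted p = 3.43e-05). The readthrough transcript DNAAF4-CCPG1 covers 38.7% of its exon length on the same strand, and how reads shared by the 2 were counted is not given in the sources used here, so its level is uncertain. TEX264 had log2 fold changes of -0.28 in QRICH1 KO (adjusted p = 0.288) and -0.01 in WT (adjusted p = 0.967). RETREG1, also called FAM134B, had 0 to 11 counts in a library (0 to 0.894 CPM) and was not tested. In bulk RNA, fewer cells that express a gene and less RNA per cell cannot be told apart.

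STX17, the syntaxin of autophagosomes that drives fusion with lysosomes, was not called, at 27.9 to 33.3 CPM in QRICH1 KO Tm, 27.3 to 29.5 in QRICH1 KO DMSO, 34.9 to 37.1 in WT Tm and 25.6 to 33.1 in WT DMSO libraries. TFEB and TFE3 encode related transcription factors that drive lysosomal and autophagy genes, and are controlled mainly by their location in the cell. TFEB (ENSG00000112561.18, chr6:41683978-41736259, minus strand) had 3.57, 4.92 and 3.74 CPM in QRICH1 KO Tm libraries, against 10.4, 11.99 and 7.63 CPM in QRICH1 KO DMSO libraries, and 4.62, 4.55 and 2.13 CPM in WT Tm libraries, against 6.67, 8.77 and 8.04 CPM in WT DMSO libraries. Each Tm library lay below each DMSO library of its genotype. TFEB fell 2.48-fold in QRICH1 KO (log2 fold change -1.31, SE 0.264, adjusted p = 0.00217) and 2.02-fold in WT (log2 fold change -1.01, SE 0.271, adjusted p = 0.0105). TFE3 was not called, with log2 fold changes of 0.07 in QRICH1 KO and 0.26 in WT. Per length TFEB stood at 0.722 CPM per kb in QRICH1 KO Tm, 1.77 in QRICH1 KO DMSO, 0.667 in WT Tm and 1.39 in WT DMSO, while TFE3 stood at 6.14 in QRICH1 KO Tm, 5.85 in QRICH1 KO DMSO, 5.91 in WT Tm and 4.93 in WT DMSO.

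**Figure D3:**
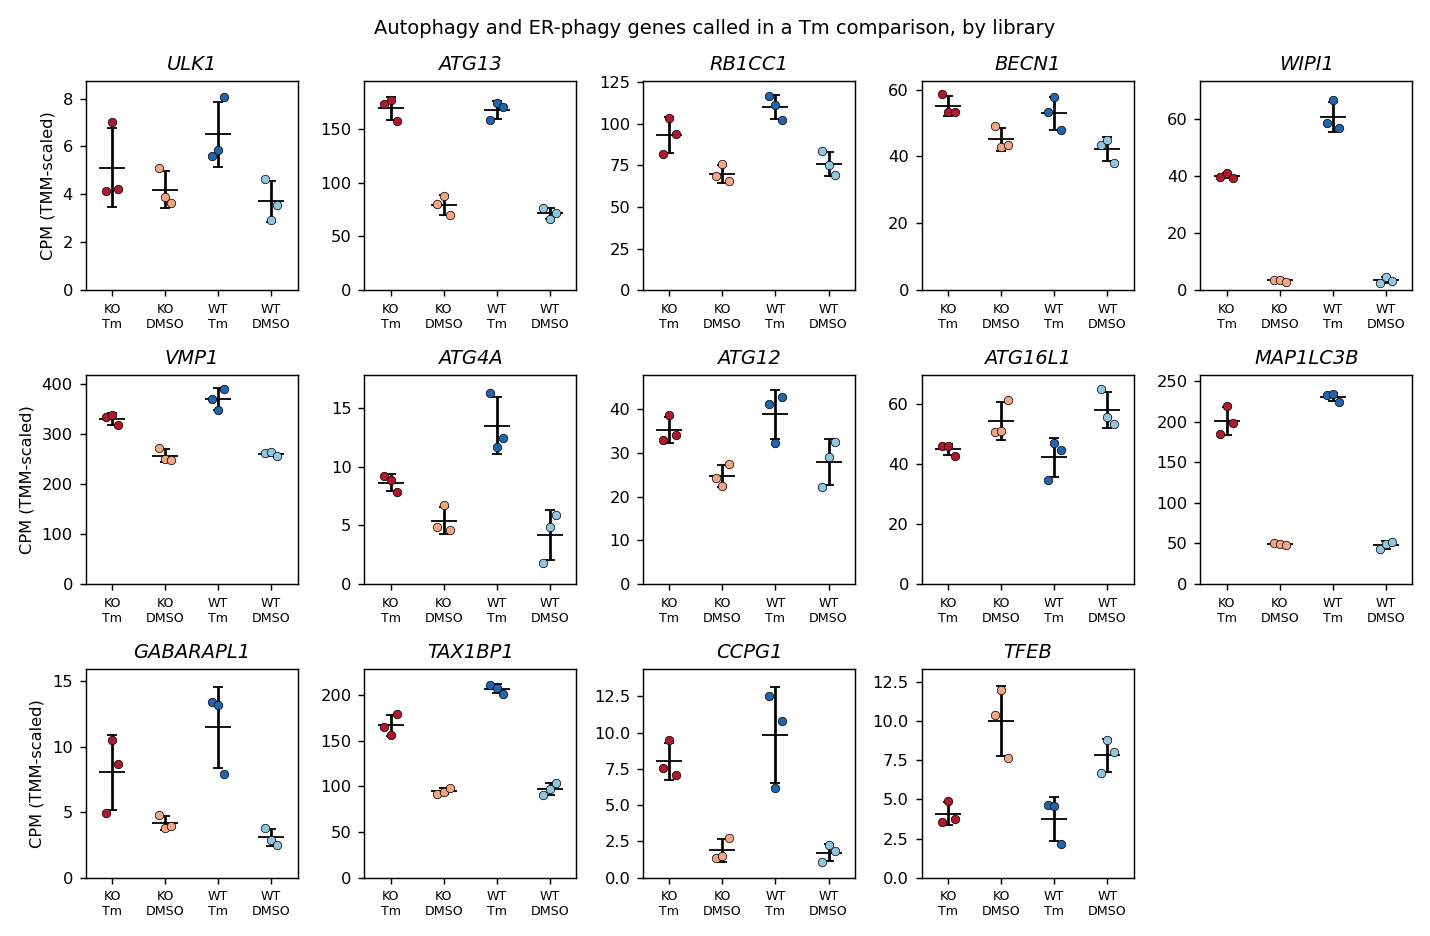
TMM-scaled CPM in each library (points) of the 14 genes called in a Tm comparison, with the mean and SD of the 3 libraries of QRICH1 KO Tm, QRICH1 KO DMSO, WT Tm and WT DMSO. WIPI1 lies at 39.3 to 41.0 CPM in QRICH1 KO Tm and 56.7 to 66.5 in WT Tm, against 2.45 to 4.63 in the DMSO libraries of both genotypes.

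Ranked by level per exon length among the 36 genes, WIPI1 stood 10th in QRICH1 KO Tm, against 28th in QRICH1 KO DMSO, and 8th in WT Tm, against 28th in WT DMSO. MAP1LC3B stood 3rd in QRICH1 KO Tm, against 9th in QRICH1 KO DMSO, and 3rd in WT Tm, against 11th in WT DMSO. SQSTM1 and VMP1 held ranks 1 and 2 in all 4 groups. CCPG1 as counted stayed near the bottom in spite of its increase, with 0.914 CPM per kb in QRICH1 KO Tm, 0.214 in QRICH1 KO DMSO, 1.12 in WT Tm and 0.197 in WT DMSO. Its level is uncertain because of DNAAF4-CCPG1. Ranks between genes also depend on the annotated exon length.

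QRICH1 KO against WT under Tm asks whether the genotypes differed in these genes during stress. No gene of the list was called by edgeR, where 1.17% of all genes were (0.406% higher and 0.76% lower in QRICH1 KO). Of the 34 genes 4 had an unadjusted p under 0.05, against 1513 of all 11323 genes. DESeq2 called 2 of the 34, WIPI1 and TAX1BP1, both lower in QRICH1 KO, and 289 over all genes. Most differences pointed down, with 24 of 34 log2 fold changes negative (70.6%, against 48.5% of all genes) and a median of -0.15, against 0.0097 over all genes. All QRICH1 KO Tm libraries lay below all WT Tm libraries for 7 genes (WIPI1, VMP1, ATG4A, MAP1LC3B, OPTN, TAX1BP1 and STX17), a pattern of 9.06% of all genes, and for none did they all lie above, a pattern of 9.41%. The comparison shares its WT Tm and QRICH1 KO Tm libraries with the Tm comparisons.

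WIPI1 had the smallest p of these. Its means were 39.98 ± 0.88 CPM in QRICH1 KO Tm and 60.6 ± 5.19 CPM in WT Tm (SD, n = 3 each), a log2 fold change of -0.60 (SE 0.149, 95% interval -0.92 to -0.29, adjusted p = 0.0594). It passed the threshold in 8 of 19 other settings, and without QRICH1 KO DMSO 3 (adjusted p = 0.0464), WT DMSO 1 (0.0301) or WT DMSO 2 (0.0359) among them, with the size at -0.65 to -0.53 throughout. The next were TAX1BP1 with -0.31 (95% interval -0.52 to -0.10, adjusted p = 0.159), OPTN with -0.43 (-0.79 to -0.07, adjusted p = 0.274) and ATG4A with -0.65 (-1.23 to -0.07, adjusted p = 0.319). For the other 30 genes the 95% interval included 0, so these data neither show a difference nor show that the genotypes were alike. MAP1LC3B, with -0.20 (-0.42 to 0.02), and ATG13, with 0.01 (-0.22 to 0.24), were among the more narrowly bounded. The count over all genes, 132, was 56 to 78 without any 1 of the 6 Tm libraries.

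**Figure D4:**
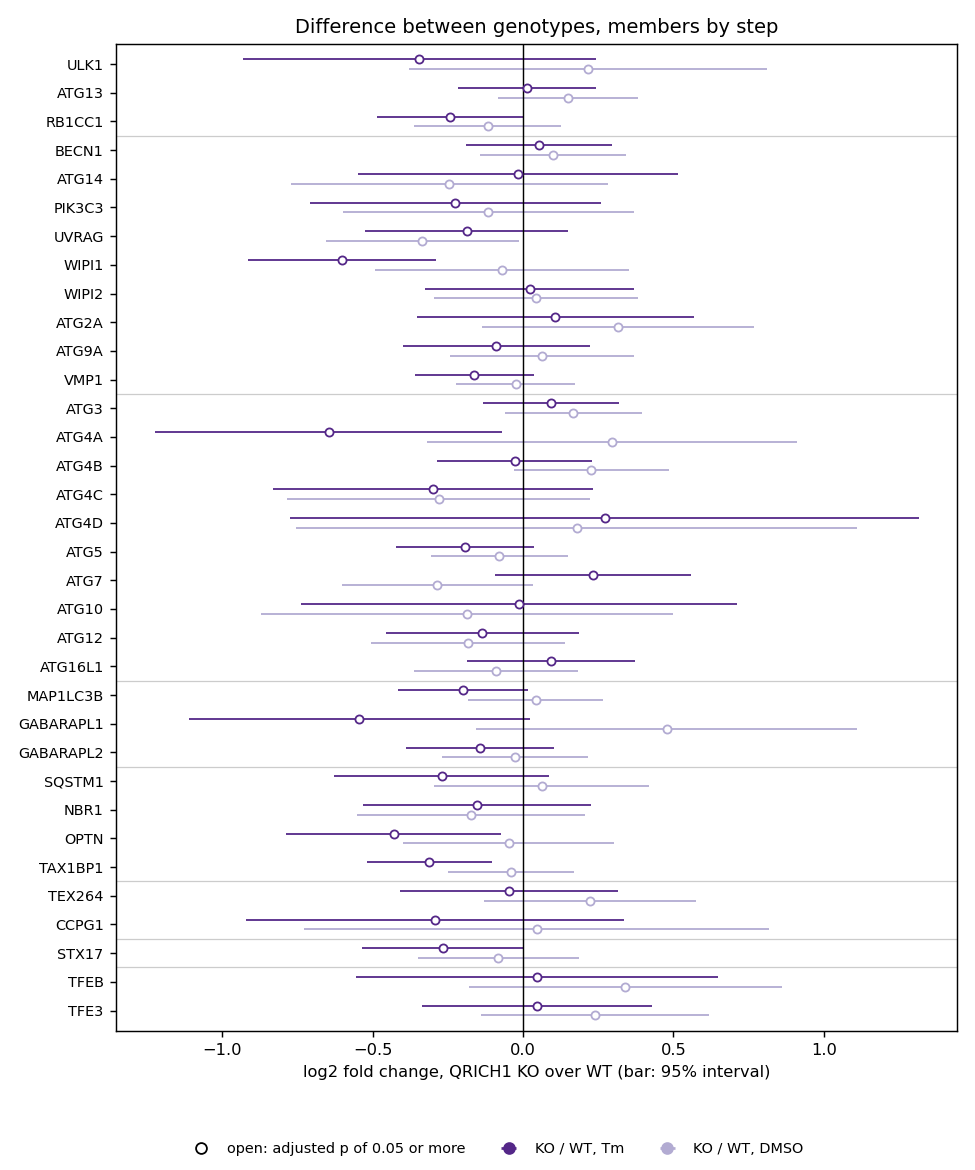
Log2 fold change of QRICH1 KO over WT under Tm (dark, upper) and under DMSO (light, lower) for the 34 tested genes, with 95% intervals; all points are open, as no adjusted p was under 0.05. Under Tm the intervals of WIPI1, ATG4A, OPTN and TAX1BP1 lie below 0, and under DMSO only that of UVRAG does.

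Under DMSO no gene of the list was called by edgeR or DESeq2, where 0.0971% of all genes were called by edgeR (0.0177% higher and 0.0795% lower). Of all 11323 genes 1027 had an unadjusted p under 0.05, and of the 34 listed genes 1 did. That gene was UVRAG, with 12.2 ± 0.84 CPM in QRICH1 KO DMSO and 15.4 ± 1.002 CPM in WT DMSO (log2 -0.34, 95% interval -0.66 to -0.01, adjusted p = 0.529). The 34 log2 fold changes were split evenly, with 17 negative and a median of 0.01, and lay between -0.34 and 0.48. All QRICH1 KO libraries lay above all WT libraries for GABARAPL1 and ATG4B, a pattern of 7.4% of all genes, and below them for UVRAG, ATG4C and ATG7, a pattern of 6.09%. Over all genes the 11 calls became 39 without QRICH1 KO DMSO library 3 and 5 without WT DMSO library 2.

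The interaction tests whether the response to Tm itself differed, as the log2 response in QRICH1 KO less that in WT. No gene was called, neither in the list nor among all 11323 (0%), although 4 of the 34 and 774 of all genes had an unadjusted p under 0.05. DESeq2 called 46 genes, none of them in the list, and without WT DMSO library 3 edgeR called 4 genes, also none in the list. The interaction was negative for 26 of 34 genes (76.5%, against 48.8% of all genes), with a median of -0.14, against 0.0087. The 4 genes were GABARAPL1 with -1.02 (95% interval -1.87 to -0.17), ATG4A with -0.94 (-1.79 to -0.10), WIPI1 with -0.53 (-1.06 to -0.00484) and ATG7 with 0.52 (0.06 to 0.97), with adjusted p between 0.649 and 0.727. The log2 fold change of QRICH1 KO over WT was -0.55 under Tm and 0.48 under DMSO for GABARAPL1, -0.65 and 0.30 for ATG4A, and 0.23 and -0.28 for ATG7, none of them called. ULK1, BECN1, ATG4A and ATG16L1, which were called with Tm in WT and not in QRICH1 KO, are therefore not shown to respond differently, with interactions of -0.56, -0.05, -0.94 and 0.18. The interaction uses the same 12 libraries as the other comparisons and is not separate evidence.

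A further list of 55 autophagy genes, written from textbook knowledge, gives the setting. Of the 51 tested, 11 rose with Tm in QRICH1 KO and none fell (21.6% higher and 0% lower, against 9.09% and 6.53% of all genes). In WT 10 rose and 3 fell (19.6% higher and 5.88% lower, against 12.6% and 11.1% of all genes). The median log2 fold change was 0.15 in QRICH1 KO and 0.13 in WT. UFM1, a ubiquitin-like protein that modifies ER-bound ribosomes and takes part in ER-phagy, had the largest change, with log2 1.53 (SE 0.143, adjusted p = 3.45e-07) in QRICH1 KO and 1.93 (SE 0.145, adjusted p = 1.15e-08) in WT. UFL1, its ligase, rose by 1.19 in QRICH1 KO (adjusted p = 0.000114) and 1.20 in WT (adjusted p = 6.31e-05) on the log2 scale. WDR45, a propeller protein of the WIPI family, rose by 1.16 in QRICH1 KO (adjusted p = 0.000117) and 1.34 in WT (adjusted p = 1.47e-05). TMEM41B, a scramblase of the ER like VMP1, rose by 1.02 in QRICH1 KO (adjusted p = 0.00531) and 1.17 in WT (adjusted p = 0.00108). The receptor gene CALCOCO2 and the initiation gene ATG101 are named after their values were seen. CALCOCO2 averaged 45.3 CPM in QRICH1 KO Tm, against 23.3 CPM in QRICH1 KO DMSO (adjusted p = 8.01e-05), and 48.9 CPM in WT Tm, against 24.4 CPM in WT DMSO (adjusted p = 3.34e-05). ATG101, a subunit of the ULK1 complex, rose in QRICH1 KO (log2 0.59, adjusted p = 0.0366) and was not called in WT (log2 0.34, adjusted p = 0.216). None of the 51 was called by edgeR between genotypes or in the interaction. At an unadjusted p under 0.05 were 5 of them under Tm, 2 under DMSO and 2 in the interaction. Over all 11323 genes the counts were 1513, 1027 and 774.

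**Figure D5:**
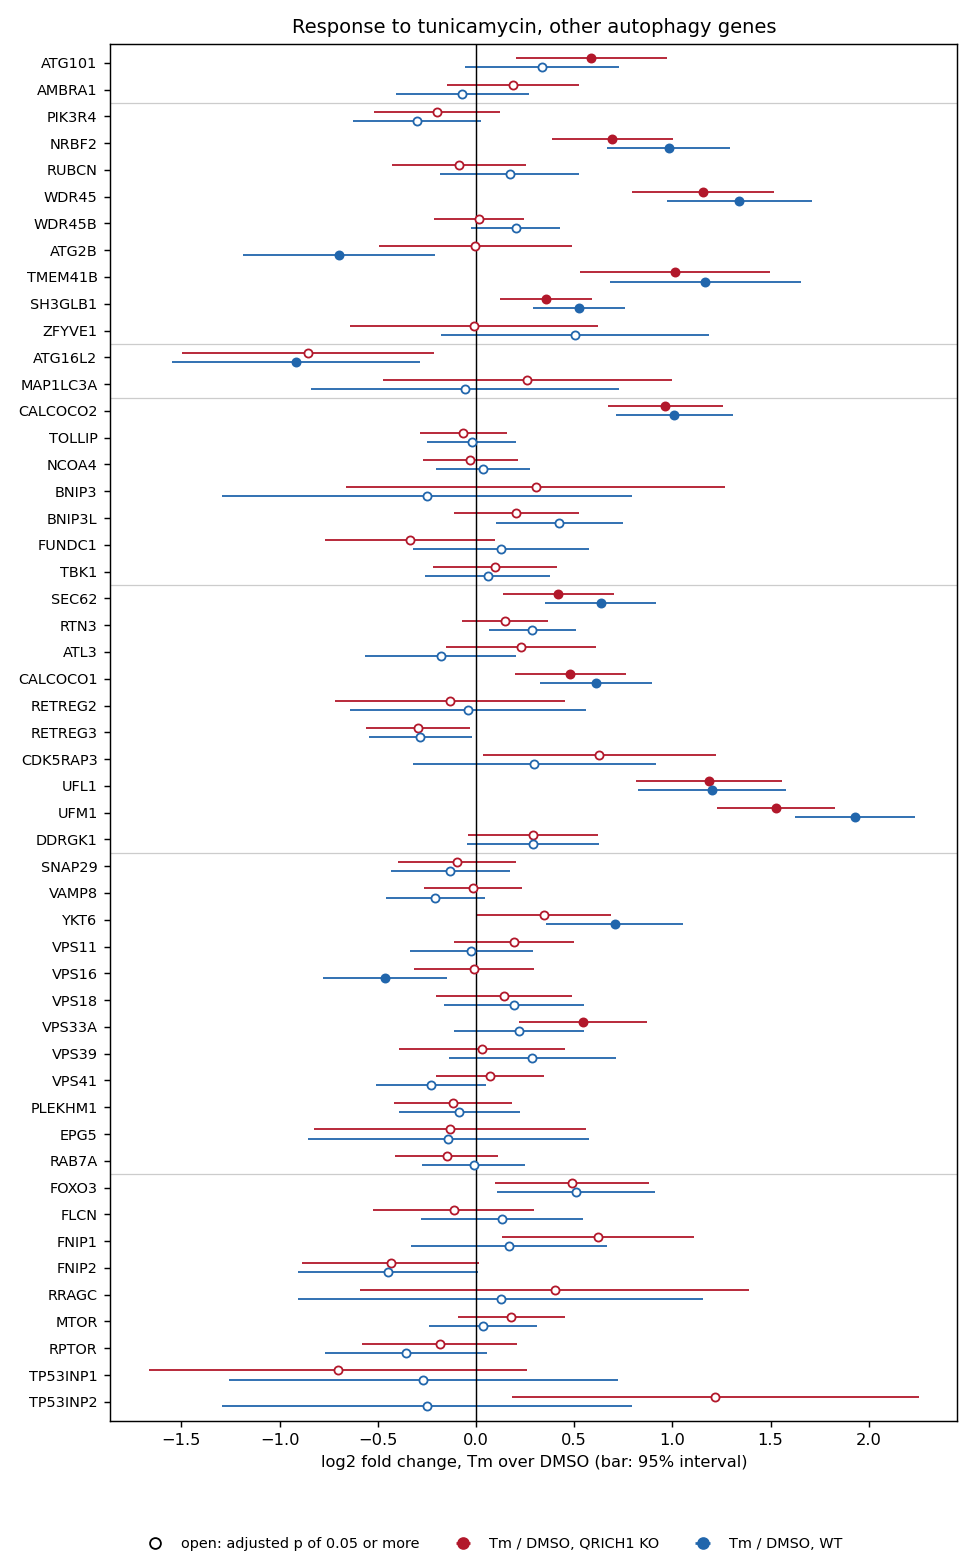
Log2 fold change of Tm over DMSO in QRICH1 KO (red, upper) and WT cells (blue, lower) for the 51 tested genes of the further autophagy list, with 95% intervals; filled points have an adjusted p under 0.05. UFM1 lies at 1.53 in QRICH1 KO and 1.93 in WT.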

How the data were processed

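Bulk RNA-seq was made from 12 libraries, per the labels' protocols with a modified Smart-seq2 method and Nextera XT on an Illumina NextSeq 500, a chemistry that marks neither strand nor molecules. The deposited table holds raw counts (whole numbers, not normalized) for each gene, with 1 column per library. Trimmomatic, STAR, DESeq2 and build hg38 are named, without roles, per the submitters' processing notes. What counted the reads, with which strand setting and which rule for multiply mapped reads, is not given in the sources used here. The table is almost all protein-coding genes (19957), so CPM are relative to these. Of its IDs, 19972 matched GENCODE 29, used for positions and exon lengths, and 19893 a symbol table. Exon length is that of all annotated exons of a gene merged, and not that of the transcripts expressed. Replicates of a group differed by a chi-square per degree of freedom of 8.64 to 35.8, so none was a copy of another.

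Counts were tested with edgeR 4.0.16 in R 4.3.3 (TMM, filterByExpr with a minimum count of 10, quasi-likelihood fit of 4 group means to all 12 libraries, limma 3.58.1 loaded), which left 11323 genes with a common biological coefficient of variation of 0.155. Adjusted p-values are Benjamini-Hochberg over all genes tested. SEs come from the F statistic and 95% intervals from the fit's degrees of freedom. Alternatives were RLE size factors, DESeq2 1.42.0, no filter, a minimum count of 50, only the compared groups, the replicate block, leaving out each library, and leaving out both QRICH1 KO libraries 3. All 36 genes of the list are named. Those called in any comparison are given in every library. Of the further list at most 4 per comparison were chosen, by size among called genes of at least 10 CPM. CALCOCO2 and ATG101 were named outside this rule, after their values were seen. The genes, lists and tests were chosen with earlier results of these data known. Protein sequences were not used here.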

Additional observations from a re-analysis of the deposited data

How the results depend on the processing

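Of 24 calls of listed genes with Tm, 16 held under all 19 other settings, 8 were lost under at least 1, and none reversed. The lost calls are ATG12, RB1CC1, GABARAPL1 and VMP1 in QRICH1 KO and ATG12, ATG16L1, BECN1 and ULK1 in WT. Conversely, 8 results not called in the main fit were called under at least 1 setting. With Tm these are ATG4A and NBR1 in QRICH1 KO and SQSTM1, PIK3C3, ATG3 and ATG5 in WT. Between genotypes under Tm they are WIPI1 and TAX1BP1. Besides leaving out a library, SQSTM1 passed without the filter and with the replicate block, PIK3C3 with the block, and ATG4A without the filter. Levels under about 10 CPM (ULK1, ATG4A, GABARAPL1, CCPG1, TFEB) limit precision. Leaving out 1 library gave 6 to 11 calls of listed genes with Tm in QRICH1 KO (10 in the full data), 10 to 14 in WT (14) and 0 to 1 between genotypes under Tm (0). Over all genes it gave 1109 to 1858 calls in QRICH1 KO (1768), 56 to 160 between genotypes under Tm (132), 5 to 39 under DMSO (11) and 0 to 4 in the interaction (0). Between genotypes under Tm, 1 listed gene (WIPI1) was called with RLE size factors, without the filter or with only the compared groups, and 2 with DESeq2. Over all genes this comparison gave 279 calls without the filter and 289 with DESeq2. Under DMSO there were 138 calls without the filter, 6 with only the compared groups, 60 with DESeq2 and 59 without both QRICH1 KO libraries 3. The interaction gave 44 calls without the filter and 46 with DESeq2. The cause was not tested.

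Same-numbered libraries did not all deviate together. The correlation of their deviations from the group means was -0.186 to 0.265 over 18 pairs, above 0.1 in 6. Of 12 libraries, 5 correlated best with their own number. Between QRICH1 KO Tm, QRICH1 KO DMSO and WT DMSO, libraries 1 correlated at 0.11 to 0.213 and libraries 3 at 0.119 to 0.265. Libraries 2 correlated at -0.024 to 0.002 there. WT Tm library 1 correlated with libraries 3 of those groups at 0.118 to 0.219, and with their libraries 1 at -0.186 to -0.139. WT Tm library 2 correlated with libraries 1 of those groups at 0.164 to 0.226. Deviations were thus partly shared between groups, but not by number throughout, so the number is not taken as a pairing. With the replicate block 10 listed genes were called in QRICH1 KO, 15 in WT, 1 between genotypes under Tm (WIPI1), and 0 under DMSO and in the interaction. Over all genes the block gave 17 calls between genotypes under DMSO. The block followed the replicate number, and a block matched to the correlations above was not tested.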
